A study of Mus musculus with 6 samples.

Results

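Whole kidneys of mouse embryos at E14.5 in which Sall1 had been deleted in nephron progenitors with Six2Cre were compared with kidneys of control embryos. These were 4 of the 6 arrays of the study, and all 4 arrays of the Six2Cre line, chosen by their titles. Controls 5 and 2 were titled WT, and knockouts 7 and 9 were titled KO. All embryos came from a hybrid strain of 129 and C57BL/6. A floxed Sall1 allele is named for the line, and Six2Cre limits the deletion to Six2-expressing cells and the cells they give rise to. The line of each array was read from the style of its title together with the design text, since the labels give a genotype but no line for each sample. The labels do not say whether the controls carried Cre or floxed alleles, so effects of the Six2Cre transgene itself and of losing Sall1 cannot be told apart. A tamoxifen treatment at E12.5 is given in the protocol of all 6 samples, and the labels leave unsaid whether it was also applied to the Six2Cre line. The other arrays, 1 control and 1 knockout of an inducible CreER line, are used for side by side values and in choosing and filtering probes.

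Sall1 encodes a zinc finger transcription factor of the cap mesenchyme, the layer of nephron progenitors around each tip of the branching ureteric bud. These progenitors renew themselves while some of their number leave, become epithelial vesicles and form podocytes, proximal tubule, loop of Henle and distal tubule. The ureteric bud, the Foxd1-positive stroma, vessels and macrophages come from other lineages. In whole kidneys, fewer cells of a type and less RNA per cell cannot be told apart.

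Levels are log2 processed signals relative to the 75th percentile of the same array, so that 0 is the level that 75% of the probes did not exceed, and differences are knockout minus control on the log2 scale. Control 5 and knockout 7 shared slide 1, and control 2 and knockout 9 shared slide 2. The share of probes well above background ran from 80.0% to 82.9%, and no probe was saturated. The 2 controls differed from each other by at least 2-fold at 3168 features and the 2 knockouts at 3195, against 2933 features between knockout and control on slide 1 and 2204 on slide 2. Control 2 also carried muscle and liver transcripts. Myh3, an embryonic myosin, was at 3.81 on control 2 and between -2.52 and -1.82 on the other 3 arrays, and Alb, the liver's albumin, was at 1.13 on control 2 and between -3.05 and -0.66 on the other 3. All 19 measured skeletal muscle genes were at least 2-fold lower in the slide 2 pair, against 3 in the slide 1 pair, with median differences of -4.16 and 0.25. For these reasons each gene is read within both slide pairs.

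The targeted gene was lower on both knockout arrays. Sall1 was at -1.36 on control 5 and -0.76 on control 2, and at -2.63 on knockout 7 and -1.99 on knockout 9. The groups did not overlap, with both knockouts below both controls, as at 3298 of 26386 measured features. The difference was nearly the same in both pairs, -1.26 and -1.23. This is a 2.37-fold lower level (difference -1.25, SE 0.176, n = 2 per group), and the array's single Sall1 probe stayed well above background in the knockouts. Its limma adjusted p was 0.147 with the slide as a block, and 0.0201 when the spread was fitted as a trend over the signal level with robust estimation. Whether the probe lies in the deleted part of the gene is not known from the labels, so the remaining signal does not measure how complete the deletion was.

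Among the related genes, Sall3 was lower by more than Sall1 itself. Sall3 was at -2.06 and -1.91 in the controls and at -4.53 and -4.46 in the knockouts, 5.70-fold lower (SE 0.177, limma adjusted p = 0.0844). Sall2 differed by -0.20 and Sall4 by 0.24. Sall proteins recruit the NuRD chromatin remodelling complex. None of the 13 measured genes of this complex reached a 2-fold difference in both pairs, and Chd4, its main ATPase, differed by -0.95 and -0.21 in the slide 1 and slide 2 pairs.

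Over the whole array no feature passed the limma test with the slide as a block at an adjusted p of 0.05, which is 0% of 26398 features in either direction, and the lowest adjusted p was 0.0770. At an unadjusted p under 0.05 there were 1197 lower and 1883 higher features. The fit with trend and robust estimation called 336 features lower (1.27%) and 352 higher (1.33%). An exact permutation test of 2 arrays against 2 that ignores the slides cannot give a p under 0.333. Exchanging labels only within slides leaves fewer arrangements still. The labels do not say that the arrays came from separate embryos, so that these p-values measure only the spread between these samples. The description therefore rests on features that differed by at least 2-fold in the same direction in both slide pairs. Of the 26386 features that 1 or more of the 4 arrays measured above background, 440 were lower by this measure (1.67%) and 412 were higher (1.56%), while 100 were 2-fold lower in one pair and 2-fold higher in the other. Lower in both pairs by any amount were 24.0% of features, and higher in both pairs 34.8%. Groups that did not overlap were common too: both knockouts lay below both controls at 3298 of the 26386 features, and above both at 4690. These shares and counts are the background for each gene group below, and for control and knockout levels called separate.

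The lower side held the larger differences. Among named genes, 313 were at least 2-fold lower in both pairs, 108 at least 4-fold and 29 at least 8-fold. The corresponding numbers on the higher side were 238, 25 and 3. Across all features the differences of the 2 pairs correlated with Pearson r of 0.390 and Spearman rho of 0.288. This is a description across features, which share the same 4 arrays and are not independent replicates.

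**Figure D1:**
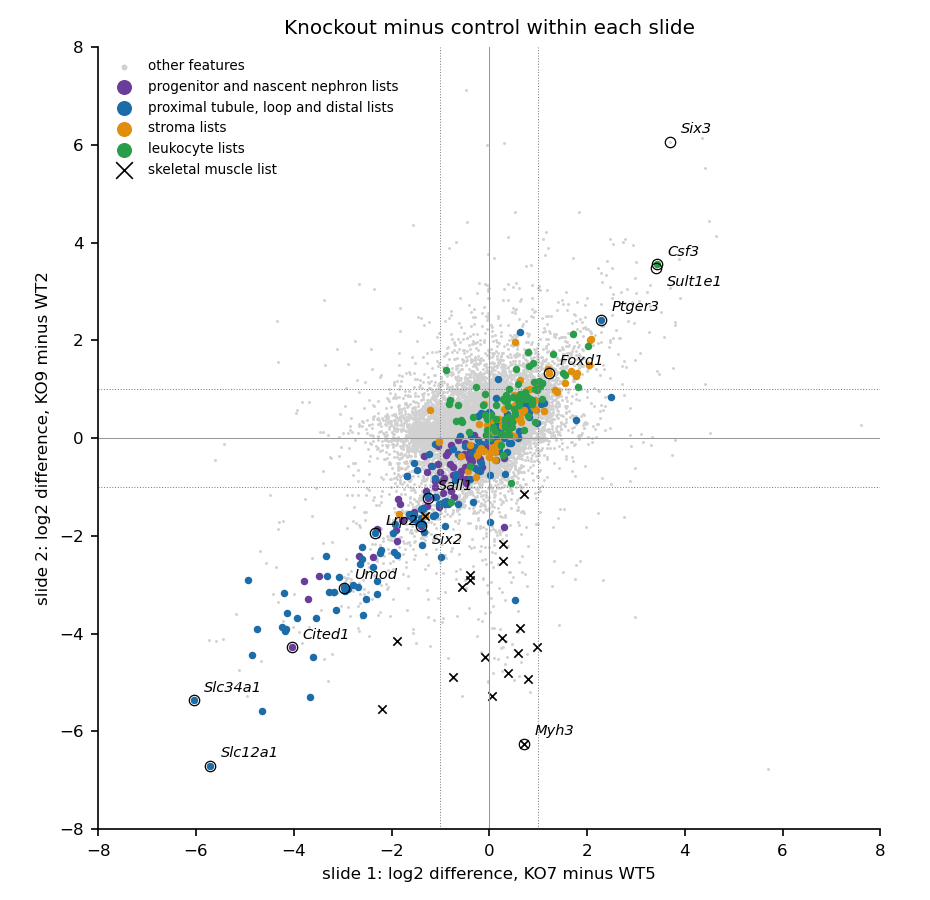
Each point is a feature, with its log2 difference in the slide 1 pair (knockout 7 minus control 5) on the x axis and in the slide 2 pair (knockout 9 minus control 2) on the y axis; dotted lines mark 2-fold and colours mark gene groups. Tubule and progenitor genes such as Slc12a1, Slc34a1 and Cited1 lie far in the lower left corner, Six3, Csf3 and Sult1e1 lie in the upper right, and muscle genes lie low along the slide 2 axis.

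The 15 named genes lowest in both pairs were mostly genes known from nephron epithelium. Slc12a1, which carries sodium, potassium and chloride together into cells of the thick ascending limb, was at 0.41 and -0.62 in the controls and at -5.29 and -7.32 in the knockouts, 73.7-fold lower (difference -6.20, SE 0.314, limma adjusted p = 0.077). Slc34a1, the main phosphate carrier of proximal tubule cells, was at -1.22 and -0.90 against -7.27 and -6.27, 52.3-fold lower (difference -5.71, SE 0.251, limma adjusted p = 0.077). Kcnj1, which returns potassium to the lumen in the thick ascending limb and distal nephron, had levels of -1.88 and -1.60 against -6.53 and -7.18, 34.6-fold lower. In all 3 genes the knockout arrays lay several log2 units under the lower control. For 7 of the 15 genes neither knockout array was well above background, and the fold is a lower bound. It sets the control mean against, on each knockout array, the higher of the gene's own signal and the dimmest signal well above background. Bounds for higher genes were taken the same way against the controls. For Entpd8, Spp2, Nphs1, Slc17a3 and Slc7a13, 1 of the 2 knockout arrays was well above background, and their folds use the measured signals of both.

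One of these 7 was Lamp5, a lysosome-associated membrane protein best known from neurons and dendritic cells, which was at -2.61 and -2.46 in the controls and not well above background in the knockouts, at least 34.6-fold lower. Mep1b, a brush border metalloprotease subunit, was at least 8.80-fold lower, Slc23a1, a vitamin C transporter, at least 13.9-fold, and Abcc2, an apical efflux pump, at least 6.18-fold. C8a, a complement component made mostly by the liver, was at least 7.83-fold lower, and Cyp4a31, a fatty acid hydroxylase, at least 3.55-fold. The choice of 15 sets no boundary in the data, since the smaller of both pair differences was -3.61 for the gene ranked 15 and -3.58 for the next.

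**Figure D2:**
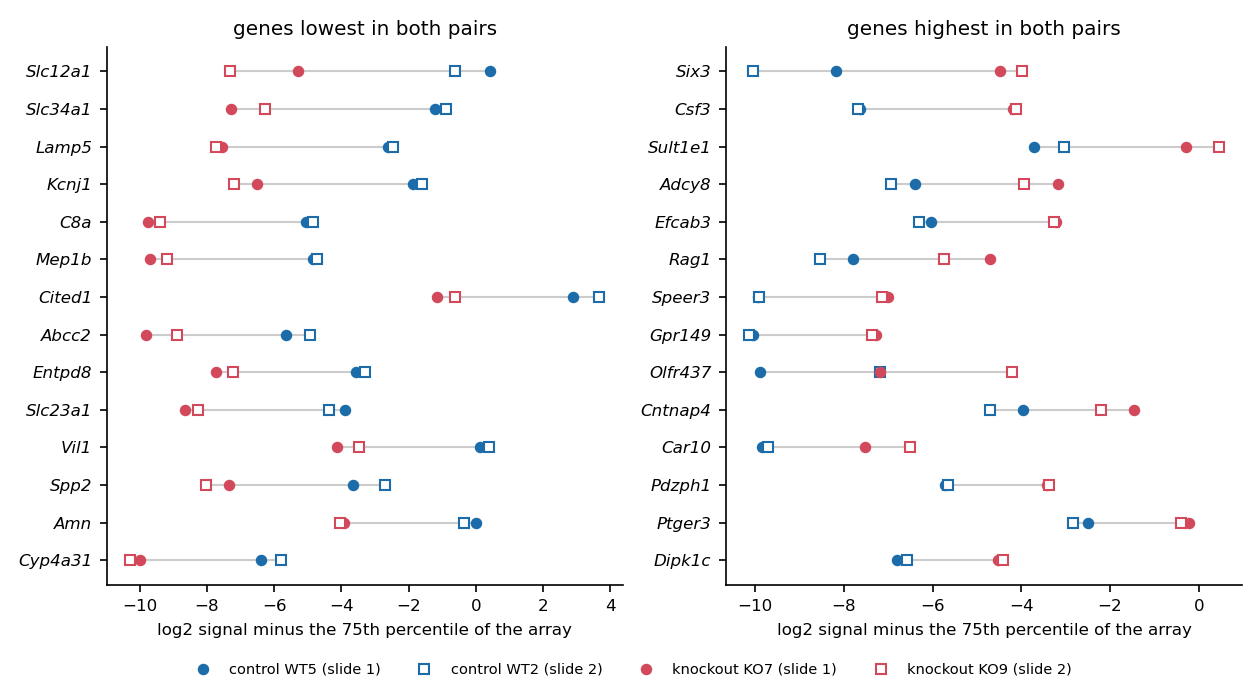
Points give the log2 level relative to the array's 75th percentile on each of the 4 arrays (x axis) for named genes lowest and highest in both slide pairs (y axis); circles are slide 1, open squares slide 2, blue the controls and red the knockouts. The control and knockout points are well apart for every gene except Olfr437, whose control 2 (-7.20) and knockout 7 (-7.19) values adjoin.

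Nephron progenitor genes were lower as a group, by very unequal amounts. Of 17 measured regulators, 15 were lower in both pairs and 8 by at least 2-fold, and none was higher in both, with a median difference of -0.88 (-1.10 and -1.01 by slide pair) beside 0.03 over all features. Cited1, which marks the least committed progenitors, was at 2.89 and 3.67 in the controls and at -1.16 and -0.61 in the knockouts. It was 17.9-fold lower (difference -4.16, SE 0.187), with a limma adjusted p of 0.077, and of 0.000383 with trend and robust estimation. Meox2, a homeobox gene of the cap mesenchyme, was at 1.81 and 1.62 against -0.57 and -0.82, 5.31-fold lower. Six2, which keeps progenitors from differentiating and whose regulatory sequence drives the Cre, was at 0.56 and 0.92 against -0.84 and -0.87, 3.02-fold lower. Phf19, a Polycomb-associated protein, was 3.07-fold lower. The control and knockout levels of these 4 genes did not overlap.

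Other progenitor regulators differed less. Eya1, the phosphatase and coactivator partner of Six2, was at 2.96 and 2.64 against 1.86 and 1.63, 2.08-fold lower. Osr1, which marks the early nephrogenic mesenchyme, differed by -1.19 and -0.57 in the slide 1 and slide 2 pairs. Pax2 differed by -0.49 and -0.59 and Wt1 by -0.39 and -0.52, both below 2-fold in each pair.

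Of 18 surface and secreted genes of progenitors, 14 were lower in both pairs, 3 of them by at least 2-fold, and 2 were higher in both. Traf1, an adaptor of tumour necrosis factor receptors, was at 0.56 and 0.88 against -1.33 and -1.23, 3.71-fold and 4.32-fold lower in the slide 1 and slide 2 pairs. Spock2, an extracellular matrix proteoglycan, was 2.88-fold lower and Crym, a thyroid hormone-binding protein, 2.32-fold. Itga8, the integrin subunit by which the mesenchyme binds nephronectin of the bud, was at 2.73 and 2.28 in the controls and differed by -1.12 and -0.88, which exceeded 2-fold in the slide 1 pair only. Gdnf, the ligand that draws the ureteric bud, was at -0.32 and -0.88 in the controls and at -0.20 and -1.07 in the knockouts. Its groups overlapped, and the difference was -0.04 (SE 0.193).

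Genes of renal vesicles and comma- and S-shaped bodies, the first epithelial stages of the nephron, were also lower. Of 21 measured members, 17 were lower in both pairs and 6 by at least 2-fold, 2 were higher in both, and the median was -0.79. Notch pathway genes, which pattern the proximal end of the S-shaped body, were among them. Hes5, a Notch target, was at 1.32 and 1.23 against -0.98 and -0.63, 4.22-fold lower (limma adjusted p = 0.109). The Notch ligand gene Dll1 differed by -1.87 and -1.25, and Lfng, which modifies Notch receptors, by -1.26 and -1.40. Jag1 was 1.68-fold lower, and Notch2 differed by only -0.07 and -0.18.

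Lhx1, the homeobox gene needed for nephron segmentation, was at 2.16 and 2.81 against 0.33 and 1.45, 3.02-fold lower. The Wnt antagonist gene Dkk1 was at 1.62 and 1.53 against -0.16 and -0.14, 3.31-fold lower. Fgf8 was 2.05-fold lower, and Wnt4, which drives the change from mesenchyme to epithelium, was at 0.83 and 1.54 against 0.24 and 0.76, 1.60-fold lower. The Wnt4 groups were separate by a small margin only. Pax8 was at -1.19 and -0.83 in the controls and at -1.14 and -0.88 in the knockouts, which overlapped.

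Of 20 transcription factors that mark nephron segments, 17 were lower in both pairs and 5 by at least 2-fold, with a median of -0.64. Hnf4a, a nuclear receptor of proximal tubule differentiation, was at -1.51 and -1.38 against -5.31 and -4.31, 10.3-fold lower (SE 0.288, limma adjusted p = 0.0938), although the differences of its 3 probes ran from -3.36 to -0.62. Irx1 and Irx2, Iroquois genes of the intermediate tubule, were 5.83-fold and 8.90-fold lower, with Irx1 at 1.09 and 1.32 against -1.58 and -1.10. Sim2, a bHLH-PAS factor, was 11.3-fold lower, at -0.97 and -1.72 against -4.68 and -5.02. Pou3f3, a POU factor of the loop and distal nephron, differed by -0.84 and -0.28. Tcf21, expressed in podocytes and stroma, was not lower (0.04 and 0.40).

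Since Hnf4a was among the lower genes, the promoters of the genes that were at least 2-fold lower in both pairs were searched on both strands for the HNF4 site CAAAGTNCA, which reads TGNACTTTG on the other strand and was chosen after these values had been seen. Windows were the 250 bases before RefSeq transcript starts on GRCm38.p6. They are shown for 3 of the lower genes with a match, Lrp2 for the proximal tubule, Cldn10 for tubule tight junctions and Cyp26a1 for retinoic acid breakdown. Sequences run 5′ to 3′ on the gene's strand, and capitals mark letters that match the HNF4 site, whichever factor uses them.
Lrp2, chr2:69586030-69586279, minus strand: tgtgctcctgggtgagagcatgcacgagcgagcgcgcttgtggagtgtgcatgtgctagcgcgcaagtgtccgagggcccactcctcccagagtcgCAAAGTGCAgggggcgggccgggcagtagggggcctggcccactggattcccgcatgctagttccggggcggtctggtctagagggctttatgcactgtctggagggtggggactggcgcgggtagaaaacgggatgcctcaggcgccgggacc
Cldn10, chr14:118787621-118787870, plus strand: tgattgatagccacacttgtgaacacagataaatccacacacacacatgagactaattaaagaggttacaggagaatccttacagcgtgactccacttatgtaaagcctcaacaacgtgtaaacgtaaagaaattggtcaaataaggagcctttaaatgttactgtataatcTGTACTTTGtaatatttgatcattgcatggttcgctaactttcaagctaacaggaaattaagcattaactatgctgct
Cyp26a1, chr19:37697558-37697807, plus strand: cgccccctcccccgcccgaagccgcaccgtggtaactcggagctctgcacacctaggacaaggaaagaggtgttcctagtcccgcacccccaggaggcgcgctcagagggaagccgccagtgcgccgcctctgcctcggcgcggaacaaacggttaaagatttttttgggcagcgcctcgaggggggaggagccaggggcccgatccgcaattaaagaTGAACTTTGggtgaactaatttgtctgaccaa

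Counted from the transcript start, the site began at position -154 for Lrp2, -78 for Cldn10 and -32 for Cyp26a1. Promoter windows were found for 232 of the 313 lower named genes and 171 of the 238 higher ones. The HNF4 site occurred in 16 of 295 windows of the lower genes (5.42%) and in 5 of 213 windows of the higher genes (2.35%), beside 1.1% of 15363 windows of all named genes tested and 1.19% of all 32851 windows. These are matches of letters in windows of which some belong to the same gene, with no test, and they do not show that a factor bound there. In the Cyp26a1 window the first letters of the match, TGAACT, recur shortly after it. That match may therefore be part of a site of another factor.

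In each of the 6 lists of proximal tubule genes, more genes were lower in both pairs than were higher in both. Of 17 measured sodium-coupled carriers, 14 were lower in both pairs and 9 by at least 2-fold, and 2 were higher in both, with a median of -1.71. Slc34a3, a further phosphate carrier, was at -3.62 and -3.46 against -6.89 and -6.62, 9.29-fold lower (limma adjusted p = 0.077). The glucose carrier gene Slc5a2 was at -3.69 and -2.61 against -6.29 and -5.08, 5.81-fold lower, and the lactate carrier gene Slc5a8 was at -3.17 and -3.15 against -6.14 and -6.20, 8.04-fold lower. Slc13a1, a sulfate carrier, was at least 6.16-fold lower. Not all carriers were lower: Slc5a12 differed by 0.62 and 2.16 and Slc4a4, the basolateral bicarbonate cotransporter, by 0.18 and 1.21. The median of this group was -0.74 with normexp background correction, -1.08 without control 2 and -2.78 without control 5.

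Organic anion and cation carriers split. Of 23, 14 were lower in both pairs and 8 by at least 2-fold, while 6 were higher in both, and the median was -0.49. Slc17a3, a urate and organic anion carrier, was at -4.69 and -4.22 against -8.22 and -7.90, 12.2-fold lower, and Slc22a6, the basolateral organic anion transporter, was at -1.64 and -1.03 against -3.28 and -2.59, 3.03-fold lower. Slc22a8, the related transporter, had overlapping groups, at -2.71 and -2.97 against -2.57 and -3.41. Among amino acid, sugar and metal exchangers, 11 of 22 were lower in both pairs, 6 by at least 2-fold, and 8 were higher in both. Slc39a5, a zinc carrier, was 10.1-fold lower, Slc2a2, a basolateral glucose carrier, 7.98-fold, and Slc7a13, an aspartate and glutamate carrier, 7.36-fold. Slc16a4, a monocarboxylate carrier family member, was higher in both pairs, by 1.09 and 1.12.

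Among genes of protein reabsorption at the apical membrane, those of the receptor complex were lowest. Lrp2, the endocytic receptor megalin, was at 1.86 and 1.73 against -0.49 and -0.23, 4.43-fold lower. Cubn, its partner cubilin, was at -0.94 and -0.53 against -2.91 and -2.47, 3.88-fold lower, and Amn, which brings cubilin to the surface, was at 0.01 and -0.37 against -3.92 and -4.04, 13.9-fold lower (limma adjusted p = 0.077). The control and knockout levels of all 3 were separate. Dab2, the clathrin adaptor of megalin, differed by -0.03 and 0.00, and Rab11a, a general endosome gene, stayed within 0.19 in either pair. Clcn5 (-0.71 and -0.86) and Cltrn (-0.93 and -1.30) were also lower in both pairs. In all, 5 of the 10 endocytic genes were lower in both pairs and 2 were higher in both.

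Of 20 brush border genes, 12 were lower in both pairs and 8 by at least 2-fold, and 4 were higher in both. Vil1, the microvillus actin bundler villin, was at 0.12 and 0.40 against -4.12 and -3.47, 16.6-fold lower (SE 0.202, limma adjusted p = 0.077). Mep1a was 6.12-fold lower, Ggt1, which splits glutathione, 5.70-fold, and Entpd8, an ectonucleotidase, 16.4-fold. Folh1 and Anpep, other brush border peptidase genes, were higher, Folh1 by 2.49 and 0.85 and Anpep by 0.68 and 0.55.

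By count, metabolic enzymes of the proximal tubule held more 2-fold lower genes than any other of the 43 lists, which differ in length. Of 30 measured members, 21 were lower in both pairs and 15 by at least 2-fold, 3 were higher in both, and the median was -1.35 (-0.79 with normexp background correction). Dao, which oxidises D-amino acids, was at -3.58 and -2.29 against -7.71 and -5.87, 17.5-fold and 11.9-fold lower in the slide 1 and slide 2 pairs, and Bhmt2, a homocysteine methyltransferase, was at -2.79 and -2.49 against -5.74 and -5.61, 8.19-fold lower. Spp2, a secreted phosphoprotein also made by the liver, was at -3.67 and -2.72 against -7.34 and -8.02, 22.5-fold lower. Gatm, which makes the precursor of creatine, differed by 0.01 and -0.05. Hpd, a tyrosine catabolism enzyme that is abundant in liver, differed by 0.53 and -3.32, so only the pair with control 2 was low.

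Some of these genes are also expressed in liver, whose markers were also lower. Of 10 gut and liver genes, 8 were lower in both pairs and 5 by at least 2-fold, with medians of -1.05 and -3.39 in the slide 1 and slide 2 pairs. Afp was at 1.81 and 3.19 in controls 5 and 2 and at -0.22 and -0.45 in the knockouts, Apoa1 at -5.53 and -2.88 against -6.67 and -6.60, and Fgb, a fibrinogen chain, at -2.03 and -0.87 against -4.38 and -3.70. Their part in the tubule values was not tested. Vil1 belongs to both groups. In the slide 1 pair alone, which leaves out control 2, 10 of 17 sodium-coupled carriers, 8 of 20 brush border genes and 17 of 30 enzymes were at least 2-fold lower. That pair had 2077 such features in all, against 837 in the slide 2 pair.

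**Figure D3:**
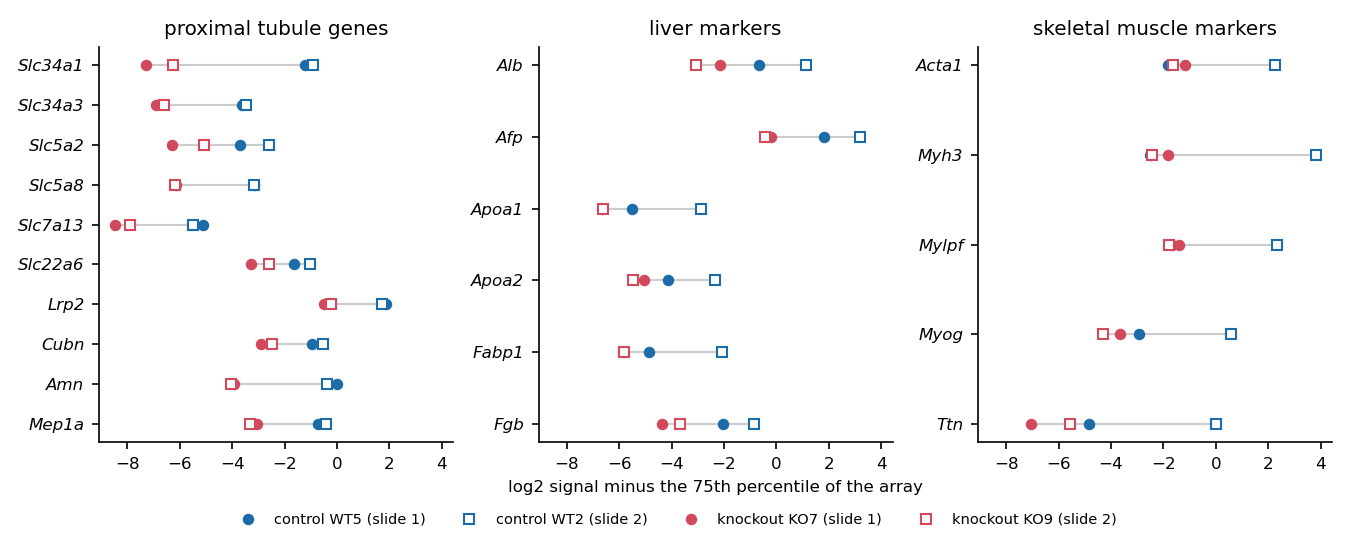
Points give log2 levels relative to the array's 75th percentile (x axis) on controls 5 and 2 and knockouts 7 and 9 for proximal tubule, liver and skeletal muscle genes (y axis). Each proximal tubule gene is lower on both knockouts than on both controls, liver genes are highest on control 2 with control 5 next, and the muscle genes are high on control 2 alone.

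Among loop of Henle and distal tubule genes, a small set had very large differences and most others lay close to level. Of 26 measured, 13 were lower in both pairs and 8 by at least 2-fold, 8 were higher in both, and the median was -0.18. Of those higher in both pairs, 1 was so by at least 2-fold, namely Ptger3, by 2.28 and 2.42. Besides Slc12a1 and Kcnj1, Umod, which encodes uromodulin of the thick ascending limb, was at -3.44 and -3.33 against -6.42 and -6.39, 8.10-fold lower (limma adjusted p = 0.077). Fxyd2, a regulator of the sodium pump, was at -0.24 and -0.01 against -2.83 and -3.63, 8.61-fold lower. The tight junction genes Cldn16 and Cldn10 differed by -1.89 and -2.38 and by -1.38 and -2.18. The kinase genes Wnk1 and Wnk4 and the growth factor gene Egf stayed within 0.19 in either pair. Calb1, which at this stage also marks the ureteric bud, was at 4.27 and 4.02 against 5.09 and 4.46, 1.55-fold higher.

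The podocyte group showed the same split. Of 23 measured genes, 11 were lower in both pairs and 5 by at least 2-fold, 7 were higher in both, and the median was -0.02. The low ones included genes of the slit diaphragm and of foot processes, though the slit diaphragm genes Kirrel and Kirrel2 lay close to level (0.37 and 0.12, and -0.07 and -0.11). Nphs1, which encodes nephrin, was at -3.18 and -2.74 against -7.88 and -5.05, 11.4-fold lower, with pair differences of -4.70 and -2.32 (SE 0.645, limma adjusted p = 0.211). It was not well above background on knockout 7, so the size of the slide 1 difference is uncertain, while knockout 9 was 4.99-fold below control 2. Ptpro, a podocyte tyrosine phosphatase, was 3.98-fold lower, Clic5 2.70-fold, and Podxl, the sialomucin podocalyxin, 2.33-fold. Synpo differed by 0.01 and -0.19, and Vegfa, which podocytes and other cells make, by -0.02 in both pairs. Mme, which encodes neprilysin, was higher by 1.04 and 1.05. Of the parietal epithelium genes, Cldn2 was at -2.18 and -1.90 against -5.07 and -4.69, 7.15-fold lower, and Cldn1 at -1.48 and -2.84 against 0.04 and -1.25, 2.94-fold higher. Cldn2 is also a proximal tubule claudin.

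Lists named for the ureteric lineage, which does not derive from Six2-expressing progenitors, held some 2-fold differences. Their members are not all restricted to that lineage. Emx2 and Slco4c1 of the tip list and Calb1 of the trunk list are also members of nephron lists here. In whole kidneys these differences therefore cannot be assigned to the ureteric lineage. In both pairs, 1 of 15 tip genes and 3 of 24 trunk genes were 2-fold lower, and 1 of 11 urothelial genes was 2-fold higher. Over all features the shares were 1.67% lower and 1.56% higher. Of 15 tip genes, 11 were lower in both pairs but only 1 by at least 2-fold, and 3 were higher in both, with a median of -0.49, of -0.25 without control 5 and of -0.21 without knockout 9. The low members included targets of FGF and RET signalling. Etv4 was at 0.77 and 1.99 against -0.13 and 0.50, 2.29-fold lower, Etv5 differed by -0.56 and -0.86, and Spry1 by -0.50 and -0.65. Sox8 was 3.25-fold lower. Ret itself differed by -0.03 and -0.41 and Wnt11, a tip ligand, by 0.01 and -0.15. Wnt9b, the bud signal that induces nephrons, differed by 0.81 and 0.24.

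Of 24 trunk and collecting duct genes, 12 were higher in both pairs, none of them by 2-fold, 6 were lower in both, and the median was 0.29 (0.55 and 0.04 by slide pair). Those at least 2-fold lower were Foxi1, the regulator of intercalated cells, at -5.44 and -4.01 against -6.65 and -5.98, Atp6v1b1, a proton pump subunit of those cells, at -4.75 and -3.60 against -6.28 and -5.98, and Lcn2. Aqp2, the water channel of principal cells, differed by -0.13 and 0.01, and Gata3 by -0.32 in both pairs. Of 11 urothelial genes, 7 were higher in both pairs. Krt15, a keratin of basal cells, was at -2.60 and -2.14 against -0.38 and -0.20, 4.24-fold higher, whereas the uroplakin genes Upk1b and Upk2 differed mainly in the slide 1 pair, by 1.92 and 2.46 against 0.49 and 0.21. The urothelial median of 0.56 was 0.05 without knockout 7 and 1.17 without knockout 9.

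Among genes with a name, the leading one on the higher side was Six3, a homeobox gene of eye and forebrain development that is the gene next to Six2 in the RefSeq gene order. Six3 was at -8.17 and -10.06 in the controls, on neither of which it was well above background, and at -4.47 and -3.99 in the knockouts, where it was on both. It was at least 12.47-fold higher (difference 4.88, SE 0.641, limma adjusted p = 0.133). The other 8 measured genes within 15 genes of Six2 differed by -0.87 to 0.24 in the 2 pairs, and the 6 measured neighbours of Sall1 by -0.35 to 0.50. Here too, Cre transgene and Sall1 loss cannot be told apart. In the CreER pair Six3 was well above background on neither array.

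Csf3, the granulocyte colony-stimulating factor, was at -7.64 and -7.67 in the controls and at -4.20 and -4.11 in the knockouts, at least 11.3-fold higher (difference 3.50, SE 0.179, limma adjusted p = 0.077). Sult1e1, which inactivates oestrogens by sulfation, was at -3.71 and -3.04 against -0.29 and 0.45, 10.9-fold higher (difference 3.45, SE 0.177, limma adjusted p = 0.077). Adcy8, a calcium-stimulated adenylate cyclase, was at -6.40 and -6.93 against -3.18 and -3.93, 8.64-fold higher, and was higher by 2.19 in the CreER pair. Cntnap4, a neurexin family member, was at -3.96 and -4.72 against -1.46 and -2.21, 5.67-fold higher. Each of these genes had separate groups and close values in the 2 slide pairs. Among the other leading genes, Speer3, Gpr149 and Car10 lay close to background even in the knockouts, with bounds of 1.74-fold, 1.46-fold and 1.81-fold, and 6 of the 15 were not well above background on either control.

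Genes of prostanoid and retinoid handling differed in both directions. Ptger3, a prostaglandin E2 receptor, was at -2.50 and -2.83 against -0.21 and -0.41, 5.10-fold higher (SE 0.18, limma adjusted p = 0.0876), and Ptgfr, the prostaglandin F receptor, was at -1.76 and -2.75 against -0.15 and -0.60, 3.68-fold higher. The retinoic acid-degrading enzyme gene Cyp26a1 was at -3.42 and -2.99 against -5.68 and -5.37, 4.79-fold and 5.21-fold lower in the pairs. Sult1d1, a further sulfotransferase, was at -0.52 and -0.73 against -2.58 and -3.78, 5.89-fold lower, opposite to Sult1e1. The synthase gene Ptges differed by 0.17 and -0.09.

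Stromal genes were higher more often than lower in both pairs in the lists of progenitor factors, proteoglycans and collagens. The smooth muscle and mural list was split, with 4 of 15 genes higher in both pairs, 5 lower and a median of -0.05, and its intermediate filament gene Des, which skeletal muscle also expresses, differed by -1.31 and -1.60. Of 27 transcription factors and signals of the renal stroma, 15 were higher in both pairs, 4 of them by at least 2-fold, and 6 were lower in both. Foxd1, the factor that defines stromal progenitors, was at 3.35 and 2.61 against 4.57 and 3.94, 2.42-fold higher (SE 0.179, limma adjusted p = 0.145, and 0.00696 with trend and robust estimation). Ntn1, the guidance cue netrin-1 made by stromal progenitors, was at -0.81 and -1.84 against 1.25 and 0.16, 4.10-fold higher, and Crabp1, which binds retinoic acid, was 2.87-fold higher. Pdgfra, the stromal growth factor receptor, was at 2.75 and 2.01 against 3.98 and 3.29, 2.38-fold higher. Osr2, a zinc finger gene, went the other way, at -0.74 and -0.35 against -2.60 and -1.92, 3.27-fold lower. The median of the group was 0.29, 0.18 without control 2 and 0.16 without knockout 9.

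The small leucine-rich proteoglycans, which bind collagen fibrils and growth factors, were higher in all but 1 case: 12 of 13 were higher in both pairs, 5 of them by at least 2-fold, none was lower in both, and the median was 0.91. Kera was at -5.34 and -5.32 against -3.26 and -3.31, 4.14-fold higher, and Ogn by 1.80 and 1.32, 2.95-fold higher. Omd was 3.41-fold higher, Aspn 2.87-fold and Lum 2.52-fold. Dcn was at 4.04 and 4.03 against 4.82 and 5.02, 1.84-fold higher, and Bgn, the exception, differed by 0.19 and -0.16. Of 16 collagens, 13 were higher in both pairs but none by 2-fold in both, with a median of 0.57. Col3a1 was at 4.94 and 4.54 against 5.54 and 5.16, 1.52-fold higher, and Col5a3 was 2.25-fold higher.

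Among the ligand genes of the TGF-beta family, 3 were at least 2-fold higher in both pairs and others were lower. Inhba was at -2.41 and -2.16 against -1.13 and -0.72, 2.56-fold higher, Tgfb3 at 2.02 and 2.22 against 3.44 and 3.44, 2.49-fold higher, and Tgfb2 at -1.09 and -1.58 against -0.01 and -0.07, 2.46-fold higher. The receptor genes Tgfbr1, Tgfbr2 and Acvr2a differed by 0.06 to 0.35 in either pair, Bmpr1b by 0.76 and 0.38, and Bmpr2 by -0.90 and 0.09. Of the other ligand genes, Bmp2 differed by -1.34 and -0.36, Bmp7 by -0.47 and -0.92, and Tgfb1 by -0.13 and -0.31. Of 32 measured genes of the BMP and TGF-beta pathways, 17 were higher in both pairs and 11 lower, with 3 and 0 by 2-fold. Among growth factor genes, Hgf was 2.12-fold higher and Egfr, a receptor, 2.08-fold, whereas Fgf1 was at -3.81 and -4.16 against -5.55 and -5.77, 3.20-fold lower.

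**Figure D4:**
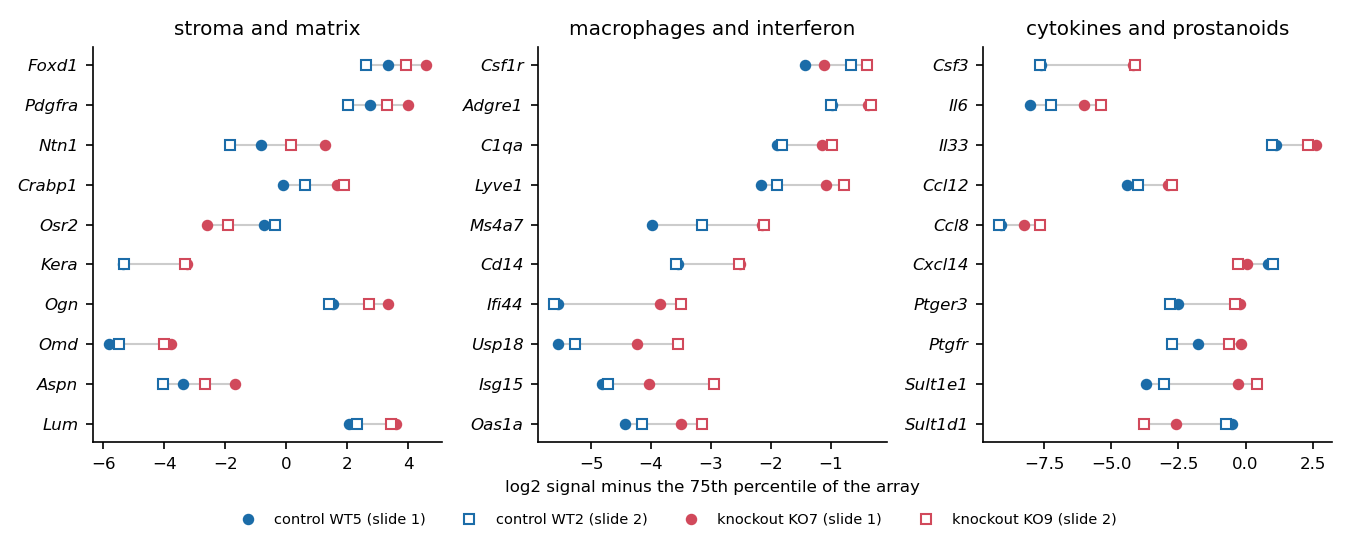
Points give log2 levels relative to the array's 75th percentile (x axis) on controls 5 and 2 and knockouts 7 and 9 for stromal and matrix genes, macrophage and interferon-stimulated genes, and cytokine, prostanoid receptor and sulfotransferase genes (y axis). Most of these genes are higher on both knockout arrays, Csf3 and Sult1e1 by the most, while Osr2, Cxcl14 and Sult1d1 are lower.

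Most macrophage genes were higher in both pairs, by amounts that varied between genes. Of 29 measured, 25 were higher in both pairs, 3 by at least 2-fold, and none was lower in both, with a median of 0.64. Itgam, Cx3cr1, Laptm5 and Spi1 were lower in the slide 1 pair and higher in the slide 2 pair, and F13a1 and Stab1 lay close to level on slide 1 (0.04 and 0.08). C1qa, a complement subunit made by tissue macrophages, was at -1.90 and -1.82 against -1.14 and -0.97, 1.75-fold higher, and Adgre1, the F4/80 antigen, by 0.61 and 0.67 in the slide 1 and slide 2 pairs, 1.56-fold higher. Ms4a7 was 2.70-fold higher, Lyve1, a hyaluronan receptor of perivascular macrophages and lymphatics, 2.15-fold, and Cd14 2.07-fold. Csf1r, the receptor that macrophages need, differed least among these, at -1.43 and -0.66 against -1.11 and -0.40, with overlapping groups. Of the genes of granulocytes, lymphocytes and mast cells, 5 of 15 were higher in both pairs, none by 2-fold, and the medians were -0.05 and 0.47 in the slide 1 and slide 2 pairs.

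All 14 measured interferon-stimulated genes were higher in both pairs, 3 of them by at least 2-fold, with a median of 0.66. Ifi44 was at -5.55 and -5.62 against -3.85 and -3.50, 3.77-fold higher, and Usp18, which removes the ubiquitin-like ISG15, was at -5.55 and -5.27 against -4.24 and -3.55, 2.85-fold higher. Oas1a, an antiviral RNA sensor, was 1.95-fold higher. Without knockout 7 the median was 1.07. Of 26 chemokines and cytokines, 19 were higher in both pairs, 4 by at least 2-fold, and 2 lower, with a median of 0.46 (0.22 with normexp background correction). Besides Csf3, Il33, an alarmin of stromal cells, was at 1.13 and 0.98 against 2.63 and 2.32, 2.67-fold higher, Ccl12 2.66-fold, and Il6 at -8.02 and -7.26 against -6.00 and -5.38, 3.86-fold higher. Tnf differed by 0.24 and -0.14, and Cxcl14 was 2.07-fold lower.

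Few cell cycle, stress or vascular genes reached 2-fold in both pairs. Of 25 cell cycle genes, 14 were lower in both pairs and 0 were higher in both, beside 24.0% and 34.8% of all features, and none was lower by 2-fold, with medians of -0.02 and -0.29 in the slide 1 and slide 2 pairs. Of 24 p53 target and apoptosis genes, 6 were lower and 5 higher in both pairs (median difference -0.01), while the p53 target gene Cdkn1a had opposite signs in the 2 pairs. None of 22 endothelial or 12 erythroid genes reached 2-fold in both pairs, with medians of -0.19 and 0.17. Of 17 neural genes, Elavl4, an RNA-binding protein of neurons, was 3.27-fold lower and no other reached 2-fold in both pairs. Adrenal cortex genes had a median of -0.43 (0.05 without knockout 9), although Nr0b1 was at -3.77 and -4.04 against -1.31 and -2.08, 4.64-fold higher. Of the Y-linked genes, Ddx3y lay between 1.16 and 1.47 on all 4 arrays.

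**Figure D5:**
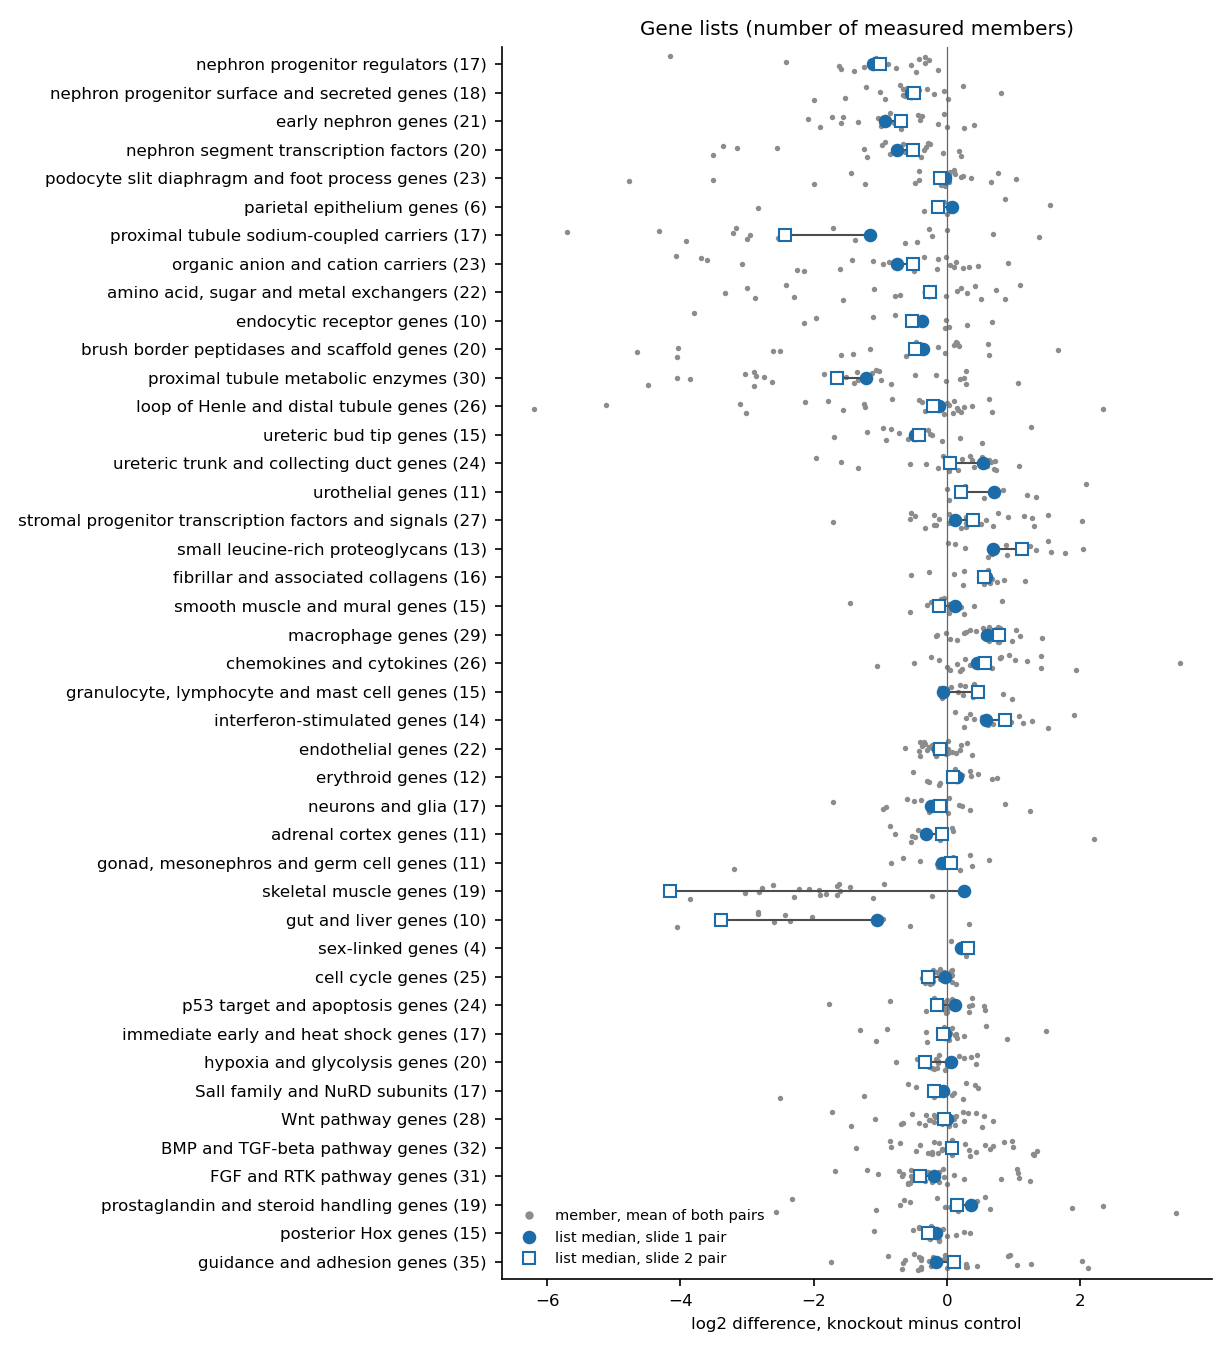
Grey points are the genes of each of the 43 lists (y axis) at their log2 difference, knockout minus control (x axis), and the symbols give the list's median for each slide pair. Proximal tubule, progenitor and early nephron lists lie below 0 in both pairs, proteoglycan, collagen, macrophage and interferon lists lie above 0 in both, and the skeletal muscle list separates the 2 pairs (0.25 and -4.16).

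In the CreER pair, Sall1 differed by -2.78, against -1.26 and -1.23 in the Six2Cre pairs. The 15 lowest named genes ran from -2.90 for Lamp5 to 0.73 for Spp2 there. Cited1 differed by -2.85, C8a by -1.51, Slc12a1 by -1.05 and Kcnj1 by -0.98, whereas Slc34a1 differed by -0.13, Mep1b by -0.03 and Amn by -0.27. Csf3 and Sult1e1 differed by -0.16 and 0.02. C8a and Csf3 were well above background on only 1 of the 2 CreER arrays. The CreER knockout array had 71.7% of probes well above background, against 82.2% on the CreER control. The SD of its negative control probes was 4.009, against 1.575 on the CreER control, which limits these values. The difference between the lines was fitted over all 6 arrays with limma, assuming that the single CreER arrays vary like the others. It called no feature at an adjusted p of 0.05, with 1382 at an unadjusted p under 0.05 and a lowest adjusted p of 0.459, so these values are side by side descriptions.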

How the data were processed

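Whole-kidney RNA (0.25 ug per sample, labelled with Cy3, per the labels' protocols) was measured on 1-colour Agilent mouse arrays, with 2 controls and 2 knockouts of the Six2Cre line. Per the file headers, the authors' Feature Extraction 10.5.1.1 removed background and a spatial trend from each array by itself, which gave a linear processed intensity per spot. No normalization across arrays was applied to it. The deposited values of the whole series were this intensity, uncentred: 100% differed from it by a relative tolerance of at most 0.001. Their medians were 234.11, 216.85, 201.69 and 216.05 for control 5, knockout 7, control 2 and knockout 9.

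After outlier-flagged probes were removed, 40987 of 41174 non-control probes remained, with replicate spots averaged. Probes were named through RefSeq accessions, which gave 25097 probes the names of 17305 genes, each represented by its brightest probe. Values were log2 processed signals minus the array's 75th percentile over non-control probes, and the 26398 features that 2 or more of all 6 arrays measured above background were tested. Differences were fitted with limma 3.58.1 (lmFit and eBayes, two-sided, Benjamini-Hochberg at 0.05; R 4.3.3, data.table version 1.17.8) on the 4 Six2Cre arrays with the slide as a block, which leaves 1 residual degree of freedom. Features at least 2-fold apart in the same direction in both slide pairs were counted without a test. A fold against a group with no array well above background is a lower bound and is written "at least". The fit was tested on simulated data. With the spread as fitted, the slide-block fit recovered 0% of 2-fold, 71.9% of 8-fold and 98.2% of 64-fold changes, with 8 false calls on average. With the same spread for all features it recovered 91.6% of 2-fold changes. Whether these percentages hold for the fold sizes present on the 4 Six2Cre arrays was not tested. On those arrays 29 named genes were at least 8-fold lower in both slide pairs and 3 at least 8-fold higher. The slide-block fit called 0 features there. Tables and figures used Python 3.11.15, pandas 2.3.3, numpy 2.4.6 and matplotlib 3.10.9.

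The genes named are Sall1, the 15 lower and 15 higher named genes whose smaller pair difference was largest, up to 4 members of each of 43 lists by the same measure, and defining members of a role; further list members are given by their pair differences. Some genes that the rule chose are not reported here. These lists hold 784 measured genes. The members and lists were chosen with earlier results of these data known, so lists are described by counts and medians only. Alternatives covered the block, moderation, normalization, background correction, the filter on dim probes, the probe of a gene and each array left out. The number of arrays limits the precision. The CreER arrays entered the fit of the difference between lines, the filter and the removal of flagged probes. They also entered the choice of each gene's brightest probe, which used the mean level over all 6 arrays.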

Additional observations from a re-analysis of the deposited data

How the results depend on the processing

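The counts of features called with limma depended on how the spread was modelled. With the slide block alone, without it, with quantile normalization, under either other filter on dim probes, with the mean of a gene's probes and without any 1 array, 0 features were called lower and 0 higher. The slide block with trend and robust estimation called 336 lower and 352 higher, and normexp background correction called 256 lower and 216 higher, with 465 features shared by these fits. Of the 688 features called with trend and robust estimation, 520 were among the 852 that differed by at least 2-fold in both slide pairs. With normexp, 205 features were at least 2-fold lower in both pairs and 143 higher, against 440 and 412. The other settings gave 428 to 490 lower and 386 to 516 higher.

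Of 181 named genes, 111 were called with trend and robust estimation and 93 with normexp. These genes were chosen largely for their differences on these same arrays, so the counts are no independent support for them. Over all 26398 features, trend and robust estimation called 1.27% lower and 1.33% higher. The sign turned with the mean of all probes for Nkg7 (-0.025). Leaving out each array in turn gave -0.030 to 0.570 for Cd3e, -0.088 to 0.209 for Ddx3y, -0.020 to 0.520 for Kdm5d, -0.656 to 0.464 for Nr5a1 and -0.314 to 0.887 for Uty. With an array left out the slide block could not be fitted. Arrays were paired by slide, which the slide block holds. No paired analysis was possible by replicate number because the Six2Cre groups share no such number. The median over all features moved by less than 0.05 under every setting run. Levels not well above background have no order, which limits the size of differences for genes such as Speer3, Gpr149 and Car10.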

Other observations

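The posterior Hox genes, which place the kidney along the body axis, were mostly level: of 15 measured, 8 were lower in both slide pairs and 3 higher, none by 2-fold in both. Hoxb9 was at 2.17 and 2.01 in the controls and at 0.96 and 1.04 in the knockouts, 2.13-fold lower. Of 28 Wnt pathway genes, 11 were lower in both pairs and 11 higher, and the 3 that were at least 2-fold lower were Dkk1, Wnt6 and Lgr5, a receptor for R-spondins, at -0.23 and -0.12 against -1.37 and -1.15. Axin2, a general target of the pathway, differed by 0.23 and 0.24.

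Of 35 guidance and adhesion genes, 4 were at least 2-fold higher in both pairs and none lower. Besides Ntn1 these were Tenm2, a teneurin, at -2.14 and -1.94 against -0.25 and 0.43, 4.37-fold higher, and the semaphorins Sema3a (2.39-fold) and Sema3d (2.08-fold). Tenm2 was also higher in the CreER pair, by 3.70. Nr2e1, a nuclear receptor of the neural retina and forebrain listed here among gonad and germ cell genes, was at -6.79 and -6.81 in the controls and not well above background in the knockouts, at least 2.17-fold lower. Of the immediate early genes, Egr1 and Egr2 were 1.87-fold and 2.47-fold lower and Jun was 1.88-fold higher, with separate groups in each.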
